A study of Homo sapiens with 14 samples.

Results

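The genes described here are 51 mitosis and kinetochore genes, listed by name: mitotic cyclins and kinases, the chromosomal passenger complex, spindle checkpoint, anaphase, kinetochore, spindle and cytokinesis genes, and 2 genes of chromosome structure, with the KIF genes of the kinesin family left out (CENPE, a kinesin too, is a member). All 51 were listed in every kind of table, among 59861 genes of the old and young tables, 54628 of the wild type and knockdown tables and 38716 of the ICM tables.

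Mitosis begins when CDK1, bound to cyclin A or cyclin B and activated by the CDC25 phosphatases, phosphorylates a large set of proteins. Chromosomes then attach to spindle microtubules through the kinetochore, which is built on CENPA nucleosomes, and the spindle checkpoint holds back the anaphase-promoting complex until every kinetochore is attached. The mRNAs of many of these genes peak in G2 and M phase and are low in cells that have left the cycle, such as senescent fibroblasts. The level of such mRNAs in bulk RNA is widely used as a readout of proliferation.

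The RNA came from IMR90, primary human fetal lung fibroblasts grown to near confluence, and was sequenced after poly(A) selection. Isolates I79 and I10 of IMR90 were each sampled at low passage (young) and after passaging to replicative senescence (old). Cells of I79 treated with inflachromene (ICM), a compound that binds the proteins HMGB1 and HMGB2, formed a further group. The last groups were labelled as wild type (WT) and as knockdown of HMGB2 (HMGB2 KD), made with siRNA according to the study's text. The labels give no ICM dose or time, no isolate for WT and HMGB2 KD, and no control siRNA for WT. Each of the 7 groups lists 2 replicates, but each old or young group has 1 table, so its values come without SD or n. The labels do not say whether that table pools the replicates or holds 1 of them. Nothing in the labels says that replicates came from separate cultures, so the knockdown p-values measure the spread between those libraries, which may be technical. In old against young no replicates entered the test, and its p-values rest on how far the changes of the isolates disagree.

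Reads on annotated genes numbered 14598433 to 20055750 in the old and young columns, 33561766 to 41168932 in the WT and HMGB2 KD libraries, and 10971132 and 13290131 in the ICM libraries. The 10 lung fibroblast markers were above 0 in every column and summed to between 13900 and 44200 CPM, the reads on a gene scaled to a common total of gene reads. Epithelial markers summed to at most 0.729 CPM, and CDH5 of the endothelial markers and CD3E of the leukocyte markers were at 0 throughout. Among the leukocyte markers PTPRC and CD3E stayed under 1 CPM. CD68, a lysosomal protein that fibroblasts make too, stood at 22.9 (I79) and 25.0 CPM (I10) in young and 151 and 76.2 CPM in old. The endothelial markers summed to 0.672 and 0.394 CPM in young and 6.89 and 2.29 CPM in old. The part of these markers in the old against young results was not tested. HMGB2 itself, scaled by TMM, measured 27.1 and 27.3 CPM in the WT libraries against 3.22 and 3.64 in those of the knockdown (log2 change -2.99, SE 0.16; edgeR adjusted p 8.28e-07).

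Many promoters of G2 and M phase genes carry a CCAAT box, the binding site of NF-Y, followed near the transcription start by a cell cycle homology region (CHR), the element bound by the DREAM complex and by B-MYB and FOXM1 complexes. RefSeq promoter windows (GRCh38.p14, 250 bases before to 50 bases after the start) were searched on both strands. The CCAAT box was searched as CCAAT and, for the other strand, as ATTGG. The CHR was searched as TTTGAA, with TTCAAA for the other strand. Its palindromic form TTCGAA was counted too. Of the 51 genes, 41 had a window, with 54 windows in all. AURKA, BIRC5, BUB3, TTK, KNTC1, UBE2C, CENPH, CENPM, TPX2 and RACGAP1 had none in the table. A CCAAT box was present in 40 of the 54 windows (74.1%) against 34.6% of all 35116 windows. At least 2 CCAAT boxes were present in 27 windows of the 54 against 10.8% of all windows. A CHR was present in 35 windows (64.8%) against 16.4%. Both occurred in 29 windows of 26 genes (53.7%) against 6.38% of all windows. In 24 windows (44.4%, against 1.74%) a CHR began within 60 bases downstream of the start of a CCAAT box. CENPE, CENPI and TACC3 held neither motif in any window. These letters are matches, not bound sites.

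Of the 13 members picked to lead their roles, the 8 with both motifs in 1 window are printed to show the matches in place. The order and spacing of the matches differ between the genes. Each stretch runs from 160 bases before to 30 bases after the RefSeq start, in the direction of transcription, in GRCh38.p14, with CCAAT and CHR matches in capitals. CDK1 is chr10:60778318-60778507 (plus strand) and PLK1 is chr16:23678729-23678918 (plus). BUB1 is chr2:110678034-110678223 (minus) and MAD2L1 is chr4:120066819-120067008 (minus). CDC20 is chr1:43358821-43359010 (plus) and CENPA is chr2:26785896-26786085 (plus). MKI67 is chr10:128126394-128126583 (minus) and TOP2A is chr17:40417867-40418056 (minus).
CDK1: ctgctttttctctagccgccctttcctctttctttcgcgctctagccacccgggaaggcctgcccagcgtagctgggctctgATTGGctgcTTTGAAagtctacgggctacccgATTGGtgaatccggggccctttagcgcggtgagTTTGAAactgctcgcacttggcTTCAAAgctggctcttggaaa
PLK1: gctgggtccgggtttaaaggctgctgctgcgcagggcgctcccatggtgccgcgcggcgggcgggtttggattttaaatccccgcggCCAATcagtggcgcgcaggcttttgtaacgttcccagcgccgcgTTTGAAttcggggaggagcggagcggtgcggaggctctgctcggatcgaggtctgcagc
BUB1: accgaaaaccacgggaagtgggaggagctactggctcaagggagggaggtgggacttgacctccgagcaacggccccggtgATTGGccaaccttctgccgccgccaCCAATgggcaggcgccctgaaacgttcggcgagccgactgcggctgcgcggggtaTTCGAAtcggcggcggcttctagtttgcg
MAD2L1: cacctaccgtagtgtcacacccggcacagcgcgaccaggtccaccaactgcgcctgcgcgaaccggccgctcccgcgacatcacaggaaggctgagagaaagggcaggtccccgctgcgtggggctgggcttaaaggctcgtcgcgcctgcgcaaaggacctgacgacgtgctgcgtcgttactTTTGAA
CDC20: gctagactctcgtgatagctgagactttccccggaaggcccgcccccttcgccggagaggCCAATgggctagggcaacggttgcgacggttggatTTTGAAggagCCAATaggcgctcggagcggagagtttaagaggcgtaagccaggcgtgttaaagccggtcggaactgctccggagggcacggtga
CENPA: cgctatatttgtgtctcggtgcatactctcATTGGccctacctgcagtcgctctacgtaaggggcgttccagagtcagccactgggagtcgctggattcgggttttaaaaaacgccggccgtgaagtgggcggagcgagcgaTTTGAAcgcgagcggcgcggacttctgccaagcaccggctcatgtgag
MKI67: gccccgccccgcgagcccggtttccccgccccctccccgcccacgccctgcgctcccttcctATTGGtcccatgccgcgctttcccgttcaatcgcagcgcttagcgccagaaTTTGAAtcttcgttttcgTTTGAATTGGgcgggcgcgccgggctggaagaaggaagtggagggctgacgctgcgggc
TOP2A: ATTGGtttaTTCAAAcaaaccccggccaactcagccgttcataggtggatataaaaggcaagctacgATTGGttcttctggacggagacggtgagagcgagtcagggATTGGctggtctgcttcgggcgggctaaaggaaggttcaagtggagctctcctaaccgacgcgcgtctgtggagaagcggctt

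In PLK1 a CCAAT box at position -73 was followed by TTTGAA at -29, counted from the start of the match to the transcription start. CDK1 had CCAAT matches at -78 and -46 and CHR matches at -69, -13 and 9. In MKI67 the CHR at -29 and the CCAAT match at -24 shared a base. The CCAAT match of MAD2L1 lay at -229, outside the stretch shown, and its CHR lay at 24, inside the transcribed part. In CENPA the nearest CCAAT match upstream of the CHR at -18 lay at -130. TOP2A had CHR matches at -194 and -151 and CCAAT matches at -244, -160, -93 and -53, so each CHR match had a CCAAT match upstream. The matches at -244 and -194 lay outside the stretch shown. Over all 54 windows, 47 of 89 CCAAT matches began between -110 and -50, and 26 of 49 CHR matches began between -50 and 10. Windows of the same gene can overlap, as in ZWINT and PTTG1, so some matches were counted more than once.

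**Figure D1:**
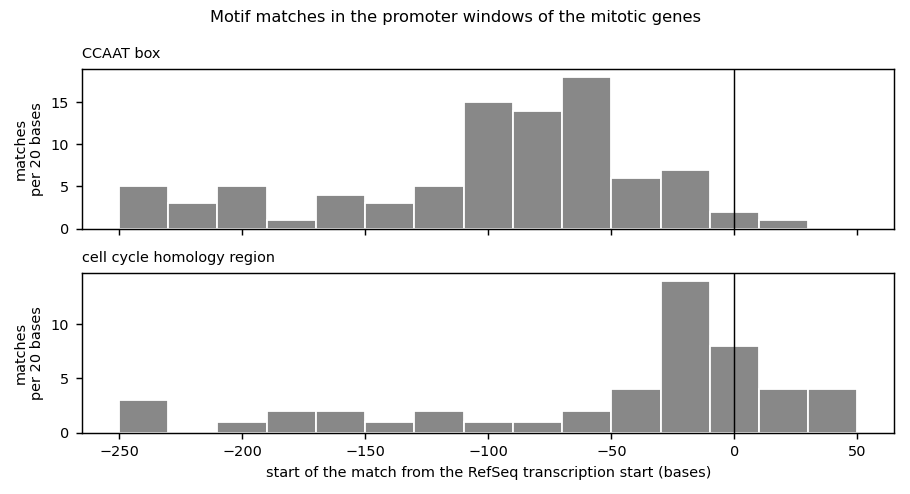
Histograms of where CCAAT (top) and CHR (bottom) matches begin, in bins of 20 bases, over the 54 promoter windows of 41 mitotic genes; the x axis is the distance in bases from the RefSeq transcription start and the y axis the number of matches. CCAAT matches crowd upstream of the CHR matches, with 47 of 89 between -110 and -50, and 26 of 49 CHR matches lie between -50 and 10. A match in overlapping windows of the same gene is counted in each.

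The summed reads of the mitotic genes gave the broadest view. CCNA2 was left out of the sum, for a reason given with the cyclins. The other 50 genes summed to 3154 CPM in the young column of I79 and 677.3 CPM in its old column. In I10 the sums were 3532 and 1109 CPM. The WT libraries reached 861.8 and 895.6 CPM and the HMGB2 KD libraries 802.9 and 807.4 CPM. The ICM libraries reached 294.4 and 281.6 CPM. Only the columns within a kind of table were counted alike.

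**Figure D2:**
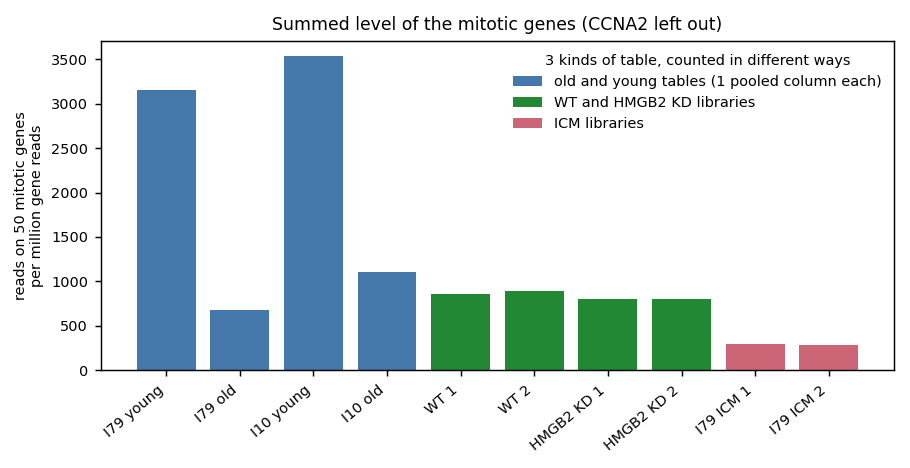
Bars give the summed CPM of 50 mitotic genes (CCNA2 left out) in each column or library; colours mark the 3 kinds of table, which were counted in different ways. The old columns of both isolates (677.3 and 1109) stand far under the young columns (3154 and 3532), and the HMGB2 KD bars lie close to the WT bars. The legend calls the old and young columns pooled, which the labels do not state.

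The old and young tables address how replicative senescence changed these genes. CCNA2 did not pass the filter on low counts, and all of the 50 other genes did. Of these, 36 were called lower in old cells and none higher (edgeR's quasi-likelihood test, isolate as a covariate, adjusted p under 0.01 and a log2 change past 0.6). Of all 15134 genes tested, 3.70% were called lower. The median log2 change of the 50 genes was -1.99, against -0.01 over all genes tested. The 36 falls ranged from -1.02 to -2.62 with adjusted p from 0.00413 to 0.0098. With a threshold of 0.05, 48 of the 50 were called lower, against 12.0% of all genes, and BUB3 and ECT2 remained. The fit had 1 residual degree of freedom, and without the isolate covariate it called 23 of the 50. In bulk RNA, fewer dividing cells and less mRNA per cell cannot be told apart.

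Within I79, 49 of the 50 genes were lower in old by more than 0.6, against 19.6% of all genes, with a median log2 change of -2.37. Within I10, 48 were lower by more than 0.6, against 18.8%, with a median of -1.65. The median gene was 5.18-fold lower in I79 old and 3.16-fold lower in I10 old. The fall was deeper in I79 for 48 of the 50 genes, with a median difference of -0.74 on the log2 scale against 0.01 over all genes. The difference passed -0.6 for 32 genes, against 9.12% of all genes. ASPM (-1.19), CCNB2 (-1.18) and CENPM (-1.16) differed the most, while CDC25B fell more in I10 (0.27) and for CCNF the difference was 0.04. Each isolate had 1 column per state, so the difference between isolates was not tested.

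**Figure D3:**
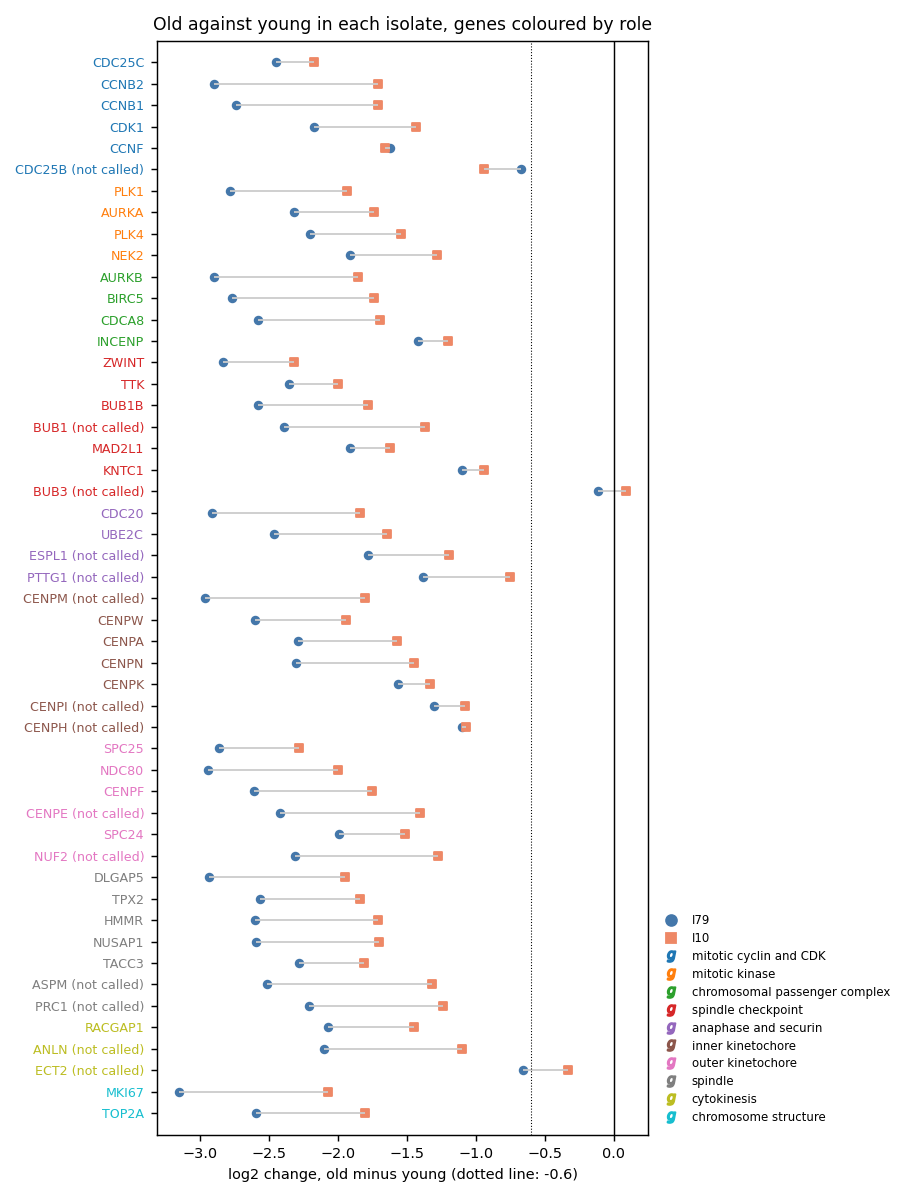
Each line is 1 of 50 genes, coloured and ordered by role. Circles give the log2 change from young to old in I79 and squares in I10, from 1 column each, and the dotted line marks -0.6. Nearly all circles lie to the left of the squares, and BUB3 alone lies at 0, between -0.11 and 0.09.

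The young columns of the isolates were close to each other. None of the 50 genes was more than 0.6 apart between I10 young and I79 young, against 8.05% of all genes. I10 young was the higher for 47 genes, with a median of 0.14 against 0.01 over all genes. NUF2 differed the most, at 18.7 CPM (scaled by TMM, as are all CPM below unless shared genes are named) in I79 young and 25.0 in I10 young. PLK4 stood at 17.6 and 22.6 CPM, CENPH at 12.5 and 15.8, CENPI at 12.5 and 15.5, and SPC25 at 8.96 and 11.2. Their log2 differences were 0.42, 0.36, 0.34, 0.31 and 0.31 in that order. 

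On the TPM scale, which divides by transcript length, the 50 genes spanned 5.79 (ESPL1) to 176 (CCNB1) in I79 young, with a median of 32.9. In I79 old the median was 5.04 TPM, and in I10 it was 37.2 in young and 9.91 in old. PTTG1, at 164 and 165 TPM in the young columns, UBE2C, at 113 and 140, and BUB3, at 114 and 130, followed CCNB1. In both old columns BUB3 had the highest TPM of the 50, at 81.2 and 121. None of the genes was under 5 TPM in both young columns, and 8 were under 5 TPM in both old columns. In 38 of the 50 genes the transcript with the highest TPM was the same in all 4 columns.

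Among the cyclins and CDK1 with its activators, 5 of 6 tested genes were called lower in old, with a median of -2.00. CDK1 (chr10:62538089-62554610 in GRCh37, plus strand), the kinase that drives entry into mitosis, stood at 48.1 CPM in I79 young and 10.6 in I79 old, and at 54.9 and 20.3 in I10. Both old columns were under both young columns, a log2 change of -1.79 (SE 0.21, adjusted p 0.00758 by edgeR). CCNB1 (chr5:68462962-68474072, plus), its cyclin B1 partner, went from 124 to 18.5 CPM in I79 and 131 to 40.1 in I10. It fell by 2.21 on the log2 scale (SE 0.27; edgeR adjusted p 0.00799). CCNB2 (-2.28), CCNF (-1.65) and CDC25C (-2.36) fell as well. CDC25B, a phosphatase that activates CDK1, measured 103 and 64.8 CPM in I79 and 108 and 56.6 in I10. Its log2 change of -0.80 missed the threshold (adjusted p 0.0106 by edgeR), though old and young did not overlap.

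CCNA2, which encodes cyclin A2, could not be read from the old and young columns. Its only annotated transcript there was listed at 0 in both young columns and in I10 old, and at 131 estimated reads in I79 old. A second transcript ID that the annotation did not hold had the same length, 2797 bases. In I79 that ID held 968 reads in young and 131 in old, and in I10 it held 1346 and 445. If its reads are added to CCNA2, an alternative chosen after seeing the data, the log2 change is -1.81 (SE 0.18, adjusted p 0.00584 by edgeR) and 37 of 51 genes are called lower.

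All 4 mitotic kinases fell. PLK1 (chr16:23688977-23701688, plus), which acts at centrosomes, kinetochores and the midbody, measured 51.3 and 7.38 CPM in I79 young and old and 51.4 and 13.4 in I10. That is a log2 change of -2.35 (SE 0.24, adjusted p 0.00594 by edgeR). AURKA, the kinase of the spindle poles, fell by 2.03 on the log2 scale, PLK4, which starts centriole duplication, by 1.87, and NEK2, which separates centrosomes, by 1.60.

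The chromosomal passenger complex corrects wrong attachments and later guides cytokinesis, and all 4 of its subunits fell. AURKB (chr17:8108051-8113918, minus), its kinase, stood at 20.9 and 2.71 CPM in I79 and 23.2 and 6.36 in I10, a log2 change of -2.36 (SE 0.30, adjusted p 0.00852 by edgeR). BIRC5 (survivin) fell by 2.24 and CDCA8 (borealin) by 2.13 on the log2 scale. INCENP, the scaffold, fell the least of the complex, by 1.32, from 26.0 to 9.66 CPM in I79 and 29.4 to 12.7 in I10.

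Of the 7 spindle checkpoint genes 5 were called lower. MAD2L1 (chr4:120976778-120988013, minus), which binds and restrains CDC20, measured 37.1 and 9.77 CPM in I79 and 43.4 and 14.0 in I10. It fell by 1.77 (SE 0.14, adjusted p 0.00463 by edgeR). ZWINT, a kinetochore scaffold for checkpoint proteins, was among the 5 largest falls, from 37.8 to 5.21 CPM in I79 and, in I10, from 41.0 to 8.13 (log2 change -2.59, SE 0.18). BUB1B (-2.18), TTK (-2.19) and KNTC1 (-1.02) passed too. BUB1 (chr2:111395105-111435640, minus), a checkpoint kinase, stood at 51.8 and 9.82 CPM in I79 and 58.0 and 22.4 in I10. Its log2 change of -1.86 missed the threshold narrowly (SE 0.27, adjusted p 0.0111 by edgeR). BUB3, which brings BUB1 and BUB1B to kinetochores, stood apart from every other member. It measured 107 and 99.0 CPM in I79 and 128 and 136 in I10. The log2 change was -0.01 (SE 0.11, adjusted p 0.94 by edgeR). In CPM the order of old and young differed between the isolates, while in TPM old was lower in both.

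Among the genes of anaphase, 2 of 4 passed. CDC20 (chr1:43824652-43828874, plus), an activator of the anaphase-promoting complex, went from 74.7 to 9.82 CPM in I79 and, in I10, from 70.0 to 19.4 (log2 change -2.37, SE 0.28, adjusted p 0.00758 by edgeR). UBE2C, a ubiquitin-conjugating enzyme of that complex, fell by 2.04 on the log2 scale. PTTG1 (securin), the inhibitor of separase, measured 58.8 and 22.5 CPM in I79 and 58.4 and 34.6 in I10, a log2 change of -1.07 that did not pass (adjusted p 0.0161 by edgeR). ESPL1 (separase), which cuts cohesin, stood at 18.9 and 5.43 CPM in I79 and 18.1 and 7.85 in I10, and its log2 change of -1.49 did not pass (adjusted p 0.0105 by edgeR).

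Of the 7 inner kinetochore genes 4 were called lower. CENPA (chr2:26987157-27023935, plus), the histone H3 variant of centromeres, measured 12.9 and 2.55 CPM in I79 and 13.8 and 4.59 in I10. It fell by 1.94 (SE 0.25, adjusted p 0.00912 by edgeR). CENPW (-2.29), CENPN (-1.87) and CENPK (-1.46) fell with it. CENPM, listed at few reads, measured 7.10 and 0.814 CPM in I79 and 7.40 and 2.05 in I10. Its log2 change of -2.41 had the largest standard error of the 50 (SE 0.39, adjusted p 0.0144 by edgeR). CENPH stood at 12.5 and 5.75 CPM in I79 and 15.8 and 7.46 in I10 (log2 change -1.10, adjusted p 0.0124 by edgeR). CENPI stood at 12.5 and 4.99 CPM in I79 and 15.5 and 7.30 in I10 (log2 change -1.20, adjusted p 0.0116 by edgeR). In these 3 genes that did not pass, both old columns were under both young columns.

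The outer kinetochore holds the NDC80 complex, in which NDC80 and NUF2 bind microtubules while SPC24 and SPC25 anchor the complex to the inner kinetochore. Of the 6 listed genes of the outer kinetochore 4 were called lower. NDC80 (chr18:2571556-2616634, plus) measured 26.6 and 3.36 CPM in I79 and 27.6 and 6.80 in I10 (log2 change -2.47, SE 0.27, adjusted p 0.00668 by edgeR). SPC25 had the largest fall of all members, from 8.96 to 1.14 CPM in I79 and, in I10, from 11.2 to 2.21 (log2 change -2.62, SE 0.27, adjusted p 0.0061 by edgeR). It overlaps NOSTRIN and G6PC2, so its reads may be shared with these genes. SPC24 fell by 1.77 and CENPF by 2.17 on the log2 scale. NUF2 stood at 18.7 and 3.69 CPM in I79 and 25.0 and 10.3 in I10, a log2 change of -1.76 that did not pass (adjusted p 0.0151 by edgeR). CENPE, a motor protein of the kinetochore, stood at 66.8 and 12.4 CPM in I79 and 73.9 and 27.9 in I10 (log2 change -1.90, adjusted p 0.0103 by edgeR).

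Among the spindle genes 5 of 7 were called lower, with a median of -2.13. TPX2 (chr20:30327074-30389608, plus), which activates AURKA on microtubules, measured 115 and 19.5 CPM in I79 and 127 and 35.5 in I10 (log2 change -2.19, SE 0.20, adjusted p 0.00516 by edgeR). DLGAP5, which stabilises kinetochore fibres, went from 66.9 to 8.68 CPM in I79 and 73.8 to 19.1 in I10, one of the largest falls (log2 change -2.42, SE 0.26). HMMR (-2.15), NUSAP1 (-2.13) and TACC3 (-2.05) also passed. PRC1, which bundles the microtubules of the central spindle, stood at 107 and 23.2 CPM in I79 and 117 and 49.4 in I10 (log2 change -1.71, adjusted p 0.0114 by edgeR). ASPM, a spindle pole protein, stood at 82.2 and 14.3 CPM in I79 and 102 and 40.6 in I10 (log2 change -1.89, adjusted p 0.014 by edgeR). Neither passed, and neither showed an overlap of old and young.

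Cytokinesis was the role with the fewest calls, 1 of 3. RACGAP1, a subunit of centralspindlin, fell by 1.76 on the log2 scale. ANLN (chr7:36429430-36493400, plus), which organises the contractile ring, stood at 186 and 43.2 CPM in I79 and 209 and 97.4 in I10. Its log2 change of -1.60 did not pass (SE 0.26, adjusted p 0.0144 by edgeR). ECT2, the exchange factor that activates RhoA at the cell equator, stood at 64.4 and 40.7 CPM in I79 and 75.3 and 59.8 in I10. After BUB3 it had the smallest change, -0.49 (SE 0.12, adjusted p 0.0406 by edgeR). Of the chromosome structure genes, MKI67 (chr10:129894923-129924687, minus), the proliferation marker Ki-67 that coats mitotic chromosomes, went from 194 to 21.8 CPM in I79 and, in I10, from 228 to 54.1 (log2 change -2.60, SE 0.28, adjusted p 0.00647 by edgeR). TOP2A (chr17:38544777-38574148, minus), the topoisomerase that untangles sister chromatids, went from 325 to 53.7 CPM in I79 and, in I10, from 356 to 102 (log2 change -2.19, SE 0.22, adjusted p 0.00594 by edgeR).

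A list of 79 other mitotic genes was set beside the members. Of these, 19 were called lower and 1 higher in old, with a median log2 change of -0.77 and 14 genes above 0. Of all genes tested, 3.70% were called lower. The partners of the spindle and midbody had 7 of 19 called lower, and the partners of the outer kinetochore and checkpoint 6 of 15. The anaphase-promoting complex with its regulators had 1 of 17 called lower, with a median of -0.23. That gene, named after its values were seen, was FBXO5 (EMI1), an inhibitor of the complex and not a subunit (log2 change -1.87, adjusted p 0.00467 by edgeR). Among the genes called lower GTSE1 had the largest fall, from 28.7 to 3.74 CPM in I79 and, in I10, from 29.3 to 8.07 (log2 change -2.36), followed by FAM83D and SKA1 (both -2.27), CDCA3 (-2.24) and CDCA5 (-2.14). SKA1 is a partner of the NDC80 complex on microtubules, and CDCA5 (sororin) protects cohesion. The gene called higher, likewise named, was LATS2, a Hippo pathway kinase, at 49.3 and 98.9 CPM in I79 and 49.9 and 146 in I10 (log2 change 1.28, adjusted p 0.0083 by edgeR).

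The knockdown libraries address whether loss of HMGB2 alone changed these genes. All 51 were tested, and 1 was called, MAD2L1, which fell (edgeR's quasi-likelihood test, 2 libraries against 2). Of all 15338 genes tested, 5.20% were called in either direction. The median log2 change of the 51 genes was 0.00, as it was over all genes, with 25 genes below 0 and 26 above. For 33 genes the 95% interval lay within 0.6 of 0 on both sides. In 22 genes the values of WT and HMGB2 KD did not overlap, 14 lower and 8 higher, against 53.8% of all genes. At an unadjusted p under 0.05 by edgeR there were 2 of the 51 genes, MAD2L1 and CCNA2. The share of all genes at that threshold was not counted, so nothing is read from these 2.

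**Figure D4:**
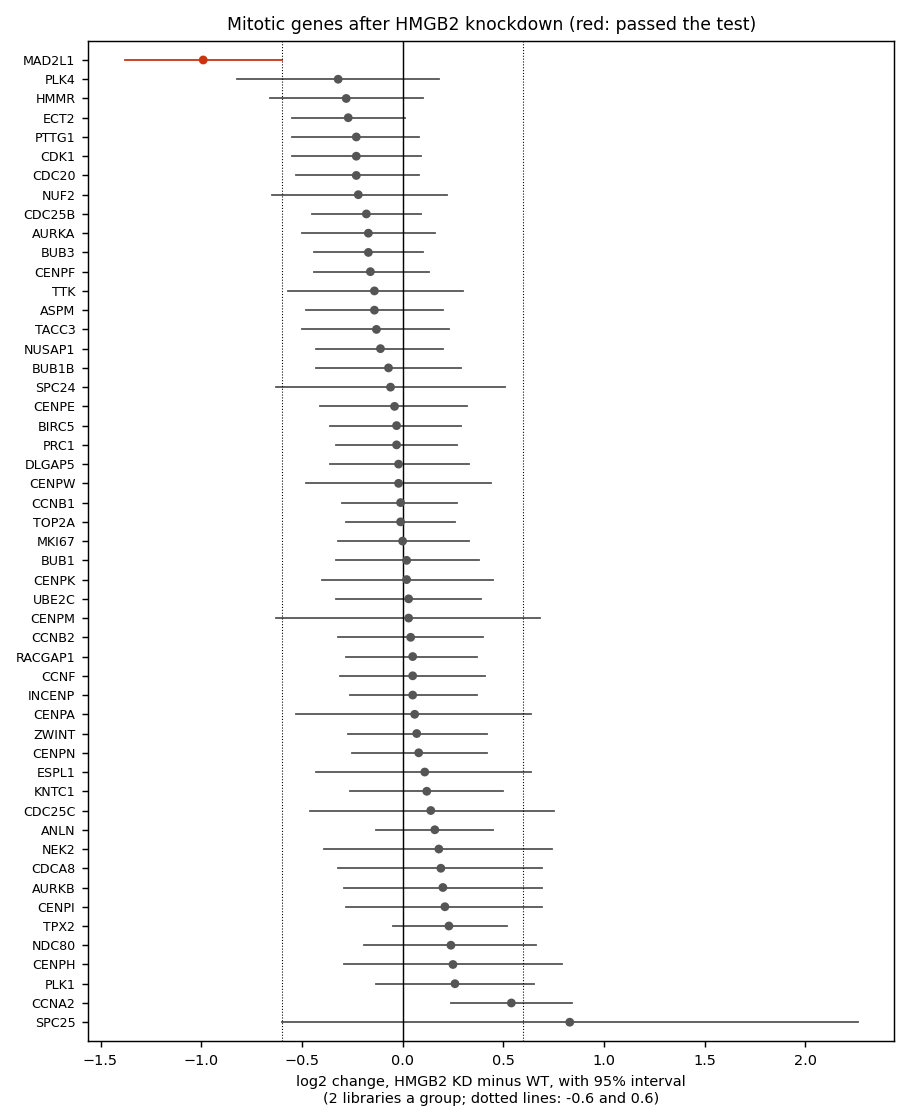
Points give the log2 change of each of the 51 genes from WT to HMGB2 KD with its 95% interval (2 libraries a group, edgeR); dotted lines mark -0.6 and 0.6, and red marks the gene that passed. MAD2L1 lies at -0.99 and 48 of the other genes between -0.32 and 0.26, with CCNA2 at 0.54 and SPC25 at 0.83 to the right.

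MAD2L1 measured 647 and 523 counts in WT and 322 and 311 in HMGB2 KD, or 18.9 and 14.0 CPM against 8.80 and 7.80. The groups did not overlap, and the log2 change was -0.99 (SE 0.18, 95% interval -1.38 to -0.60, adjusted p 0.00294 by edgeR). The annotation holds no gene that overlaps it. Without WT replicate 1 the change was -0.76 and without HMGB2 KD replicate 2 it was -0.90. Without WT replicate 2 it was -1.19 and without HMGB2 KD replicate 1 it was -1.09. Each of these fits left 1 library in a group, so they cannot tell dependence on a library from a loss of power. CCNA2, by contrast, was higher in both HMGB2 KD libraries, at 25.5 and 28.0 CPM against 18.1 and 18.7 in WT. Its log2 change of 0.54 (SE 0.14, adjusted p 0.0217 by edgeR) did not pass. SPC25 had 11 and 9 counts in WT and 22 and 16 in HMGB2 KD. At counts that low a log2 change of 0.83 came with a 95% interval from -0.60 to 2.26. The overlap of SPC25 with NOSTRIN and G6PC2 applies here as well. PLK4 stood at 5.43 and 4.82 CPM in WT and 4.07 and 4.14 in HMGB2 KD (log2 change -0.32, 95% interval -0.82 to 0.18). HMMR stood at 9.55 and 9.88 CPM against 7.62 and 8.38 (log2 change -0.28, 95% interval -0.66 to 0.10).

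The other central members differed little between WT and HMGB2 KD. CDK1 measured 17.8 and 17.0 CPM in WT and 15.9 and 13.7 in HMGB2 KD (log2 change -0.23, 95% interval -0.55 to 0.09). CCNB1 measured 24.6 and 25.0 CPM against 24.8 and 24.3, and MKI67 32.1 and 37.8 against 31.0 and 39.1. In both genes the groups overlapped, with log2 changes of -0.01 (95% interval -0.30 to 0.27) and 0.00 (-0.32 to 0.33). TOP2A measured 57.7 and 62.8 CPM against 63.0 and 56.8, which gave -0.01 (-0.28 to 0.26). PLK1 measured 14.4 and 10.6 CPM against 13.3 and 16.5, which gave 0.26 (-0.13 to 0.65). The interval of PLK1 reached past 0.6, so 2 libraries a group could not show whether a rise of that size was absent.

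Small differences were also found for the leading genes of the other roles. BUB1 measured 10.8 and 11.0 CPM in WT against 11.8 and 10.4 in HMGB2 KD (0.02, 95% interval -0.33 to 0.38). CENPA measured 3.13 and 2.87 CPM against 3.14 and 3.08 (0.06, -0.53 to 0.64), and NDC80 6.22 and 7.42 against 8.69 and 7.40 (0.24, -0.19 to 0.66). These genes overlapped between the groups. CDC20, the target that MAD2L1 restrains, measured 21.1 and 20.6 CPM against 16.8 and 18.8 (-0.23, -0.53 to 0.08). AURKB measured 5.26 and 4.79 CPM against 4.97 and 6.60 (0.20, -0.29 to 0.69). TPX2 measured 26.6 and 26.9 CPM against 29.9 and 33.0 (0.23, -0.05 to 0.52), and ANLN 35.7 and 41.4 against 41.9 and 44.2 (0.16, -0.13 to 0.45). CDC20 was lower, and TPX2 and ANLN higher, in both HMGB2 KD libraries, and none of them passed. The role medians ran from -0.11 (spindle) to 0.12 (chromosomal passenger complex).

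Of the 79 other mitotic genes, 77 were tested after the knockdown and 2 were called, against 5.20% of all genes tested. Their median log2 change was -0.06. PLK2, a stress-responsive relative of PLK1, fell from 675 and 641 CPM to 340 and 235 (log2 change -1.19, SE 0.17, adjusted p 0.00059 by edgeR). SPDL1 (Spindly), which recruits dynein to kinetochores, had 859 and 1051 counts in WT and rose to 1405 and 1756 in HMGB2 KD (log2 change 0.63, SE 0.14, adjusted p 0.00939 by edgeR). In old cells SPDL1 fell (log2 change -1.17, adjusted p 0.00621 by edgeR).

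The ICM libraries were set against I79 young over 13744 of the 24305 genes listed in all kinds of table, as the mean log2 CPM of the 2 ICM libraries, with a prior count of 2, less that of I79 young. The tables were counted in different ways, so a treatment and a counting difference cannot be told apart, and no test was run. Of 50 genes (CCNA2 left out), 48 were lower in ICM by more than 0.6, against 30.5% of all genes compared. The median was -5.11, against -0.05 over all genes. The WT libraries carry no ICM in their labels and were counted in yet another way. They gave 49 of 50 genes lower than in I79 young by more than 0.6, against 22.5% of all genes, with a median of -2.02. Against I79 old, 42 of the 50 were lower in ICM by more than 0.6, against 26.6% of all genes, and CENPN was higher, by 2.39.

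The read counts behind the ICM values were small. In both ICM libraries 13 genes had fewer than 10 reads, 5 genes had 100 or more, and 3 genes had no read in 1 library. CDK1 had 8 and 7 reads, or 0.623 and 0.661 CPM over the shared genes, against 55.0 in I79 young, 10.8 in I79 old and 19.3 and 18.5 in WT. TOP2A had 41 and 33 reads, 3.19 and 3.11 CPM against 371 in I79 young, 54.6 in I79 old and 62.7 and 68.1 in WT. MKI67 had 15 and 7 reads, 1.17 and 0.661 CPM against 222 in I79 young and 34.9 and 41.1 in WT. The ICM to I79 young log2 ratios were -6.24, -6.84 and -7.84 in that order. For each of them both ICM libraries lay under every other column shown.

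For the genes with the fewest reads the ratio was also taken without a prior count, from the pooled reads of both ICM libraries, an alternative chosen after seeing the data. The lowest ratios then belonged to DLGAP5, NUF2, MKI67, NEK2 and CENPF, and their counting intervals overlapped (exact Clopper-Pearson, 95%, counting error only). DLGAP5 had 7 and 0 reads against 76.4 CPM in I79 young, a pooled log2 ratio of -8.00 (interval -9.32 to -6.95). NUF2 had 0 and 2 reads, with a ratio of -7.97 (interval -11.02 to -6.10). NEK2, with 3.2 estimated reads in both libraries together, had a ratio of -7.32 (interval -9.68 to -5.84). CENPF, a large kinetochore protein of the nuclear matrix, had 16 and 12 reads, 1.25 and 1.13 CPM against 167, and a ratio of -7.13 (interval -7.72 to -6.59). CENPM had 6 and 0 reads, with a ratio of -4.99 (interval -6.46 to -3.82). A count of 0 in a library allows up to 3 reads.

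The cyclin B genes and MAD2L1 were less low in ICM than the genes just named. Less low still, by the log2 ratio to I79 young, were RACGAP1 (-3.15), ZWINT (-2.49), CCNF (-2.23), CENPI (-2.05) and INCENP (-1.99). CCNB1 had 164 and 123 reads, 12.8 and 11.6 CPM against 142 in I79 young, 18.8 in I79 old and 26.7 and 27.1 in WT (log2 ratio to I79 young -3.54). MAD2L1 had 58.3 and 39.0 reads, 4.54 and 3.68 CPM against 42.4 in I79 young (-3.35). PLK1 had 7 and 9 reads (0.545 and 0.849 CPM against 58.7, log2 ratio -6.26). AURKB, with 2 and 4 reads, BUB1, with 10 and 11, and CDC20, with 13 and 7, were as low as PLK1, at log2 ratios of -6.16, -5.91 and -6.56. CENPA had 4 and 3 reads (-5.28) and NDC80 10 and 7 (-5.25). TPX2 had 85 and 58 reads (-4.43) and ANLN 71 and 55 (-5.29).

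BUB3, CENPN, ECT2 and CDC25B were the least lowered in ICM. BUB3, with 1237 and 975 reads, stood at 96.3 and 92.0 CPM against 122 in I79 young, 101 in I79 old and 98.1 and 102 in WT (log2 ratio -0.38). CENPN stood at 26.5 and 23.1 CPM against 26.2 in I79 young and 4.64 in I79 old (-0.08), and it overlaps CMC2, so its reads may include those of that gene. ECT2 stood at 29.3 and 29.5 CPM against 73.6 (-1.32) and CDC25B at 39.9 and 36.5 against 118 (-1.63). BUB3, ECT2 and CDC25B were also the members with the smallest falls in old cells. ZWINT was above I79 old in ICM, at 7.01 and 8.30 CPM against 5.30.

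**Figure D5:**
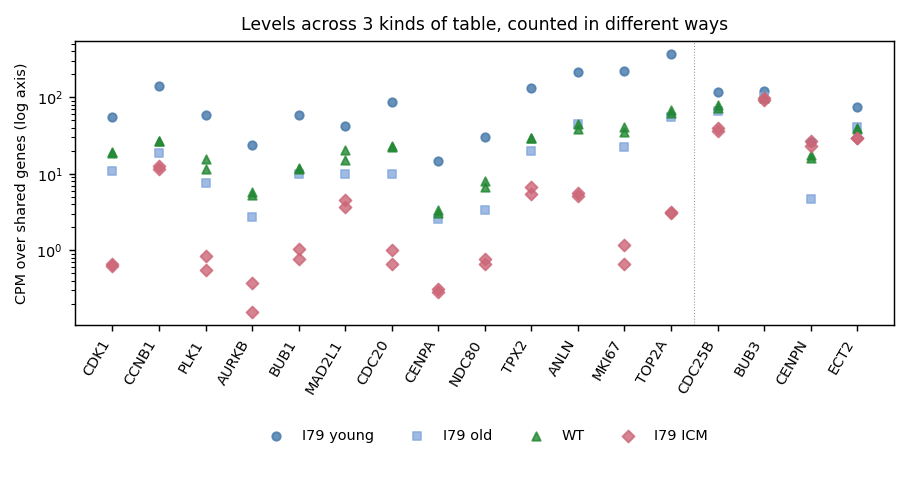
Levels of the 13 leading members and, right of the dotted line, of CDC25B, BUB3, CENPN and ECT2, as CPM over the genes shared by all tables (log axis); each symbol is 1 column or library of I79 young, I79 old, WT or I79 ICM, and the kinds of table were counted in different ways. The ICM symbols lie lowest for the leading members, down to 0.156 CPM for AURKB, while for BUB3 all symbols lie between 92.0 and 122 CPM.

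Of the 51 genes, 14 overlap another protein-coding gene in the annotation, among them CENPA (SLC35F6), PLK1 (ERN2), BUB1B (PAK6), TACC3 (TMEM129) and ANLN (MATCAP2). Whether the counting used strand is not given in the sources used here, so reads of such neighbours may be split between them. The members lie on 19 chromosomes, with at most 6 on 1 chromosome.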

How the data were processed

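Poly(A) RNA-seq of IMR90 was analysed from the authors' tables. For the old and young groups the authors deposited estimated counts and TPM per transcript in the layout of salmon, 1 table per group (quantifier not given in the sources used here). These were summed per gene through GENCODE v44 on GRCh37, which matched 97.7% of transcript IDs and 97.2% to 97.4% of reads, and rounded. The WT and HMGB2 KD tables hold whole-number counts per gene symbol, deposited for each library. The submitters' processing notes name STAR 2.6.0c, featureCounts, DESeq2 and GRCh37. Summary rows (16.9% to 18.0% of totals) were left out. For ICM the authors deposited estimated counts per gene and transcript region, which were summed.

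Tests used edgeR 4.0.16 (R 4.3.3; quasi-likelihood, TMM, filterByExpr) on all genes with Benjamini-Hochberg adjustment, a call being a log2 change past 0.6 either way at an adjusted p under 0.01. Old against young had isolate as a covariate. ICM and I10 young against I79 young had no test. Alternatives included DESeq2 1.42.0, 1 factor computed as RUVs does, and libraries left out. The fits of both tested comparisons were checked on simulated data. Counting limits cover counting error only, since reads carry no molecular identifiers. The members and lists were chosen with earlier results of these data known. Named in full were the leading genes of each role, the 5 largest changes per comparison and every member not called lower in old or called after knockdown.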

Additional observations from a re-analysis of the deposited data

Results flagged for a closer look

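On TMM-scaled counts BUB3 was the member whose change went opposite ways in the isolates. Its log2 change from young to old was -0.11 in I79 and 0.09 in I10, a difference of -0.20. On the TPM scale BUB3 was lower in old in both isolates, at 114 and 81.2 in I79 and 130 and 121 in I10. The opposite signs thus depended on the scale. Each isolate had 1 column per state, so this difference was not tested. The 95% counting intervals (exact Clopper-Pearson) were -0.21 to -0.01 in I79 and 0.00 to 0.17 in I10.

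Reads of a transcript ID outside the annotation, equal in length to the CCNA2 transcript (2797 bases), stood above the 3 reads that a count of 0 allows in every old and young column. There were 968 in I79 young and 131 in I79 old, and 1346 and 445 in I10. In I79 old the annotated CCNA2 transcript held 131 reads as well. The tables used here do not give the gene of that ID.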

How the results depend on the processing

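In old against young, 23 of 50 members were called without the isolate covariate, and all other tested settings called 37 to 49, with medians between -1.92 and -1.98. Without the filter on low counts 49 of 51 were called, 48 of them lower, CCNA2 being the exception. The settings also moved the calls over all genes. The main fit called 1416 of 15134 in either direction, and the fit without the covariate 1748. DESeq2 called 2136 of 29077 and the fit without the filter 4257 of 29077. At an adjusted p under 0.05, 1816 of 15134 were called lower. Other mitotic genes called in either direction numbered 20 in the main fit, 50 at an adjusted p under 0.05, 36 with DESeq2 and 50 without the filter. With 1 isolate left out, 44 to 49 of them passed 0.6, with no test, and BUB3 ran from -0.11 to 0.09. In these settings the cause was not tested. After HMGB2 knockdown, leaving out 1 library called 0 to 1 members (0 without WT replicate 1 or HMGB2 KD replicate 2) and 1 to 4 other mitotic genes, with member medians from -0.05 to 0.02; the lone library was assumed to vary like the other group. The RUVs factor left 1 other mitotic gene called. With a replicate block, 1 member (MAD2L1), 3 other mitotic genes and 1243 of all genes were called, against 797 without it; same-numbered libraries shared only a number (correlation of deviations 0.124, 2 pairs), and the block changed no member's call. The median ICM to I79 young ratio was -4.84 on coding-region reads, -5.29 with a prior count of 0.5, -5.23 with none and the ICM reads pooled (chosen after seeing the data), -5.19 for genes of at least 100 counts, -5.30 against I10 young and -5.01 to -5.02 with 1 ICM library left out, and -2.02 with WT in place of ICM. In the ICM libraries 13 members had fewer than 10 reads in both, which limits the precision of their ratios.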
